A study of Mus musculus with 2 samples.

Results

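The genes described here are 33 that encode the machinery bringing secretory proteins to the rough endoplasmic reticulum (ER), moving them through its membrane and attaching N-linked glycans. They were chosen by symbol as parts of 9 complexes or groups, and all 33 were found among the 43346 gene rows of both deposited tables. The tissue was the pancreas of 1 female C57BL/6J mouse, an inbred reference strain, taken at 10 weeks of age; the labels name no treatment, transgene or altered allele. Polyadenylated RNA from this 1 biological sample was sequenced as 2 technical replicate libraries, replicate 1 and replicate 2, of which the labels describe the second as a later addition. There is 1 group, so no conditions could be compared, and every difference below is between libraries of the same RNA source.

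Most proteins that a cell secretes begin with a signal sequence, which the signal recognition particle (SRP) binds as it leaves the ribosome. The SRP docks at its receptor on the ER, the chain enters the SEC61 channel, signal peptidase removes the signal sequence, and oligosaccharyltransferase (OST) transfers a preassembled glycan to asparagine side chains. Acinar cells of the pancreas, which make the digestive enzymes, are packed with rough ER and are the tissue in which much of this pathway was first described.

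Levels are given in TPM, a transcript abundance unit that sums to the same total in every library and corrects the expected count of a gene for its effective length so that genes can be set side by side within a library. Replicate 1 held 9441559 expected counts and replicate 2 held 9797569, but 38.4% and 52.6% of them lay in mitochondrial genes and their nuclear copies, Gm42418, Gm26917 and Lars2. The 8 acinar markers, Ctrb1 and Cpa1 among them, summed to 125724 and 141341 TPM, and the islet markers to 21692 and 23383 TPM. Markers of B and plasma cells, which also secrete heavily, summed to 237 and 134 TPM, those of fibroblasts to 546 and 322 TPM, those of adipocytes to 274 and 163 TPM, and those of endothelium, macrophages and duct cells to 229.6, 102 and 47.7 TPM in replicate 1 and 206, 96.1 and 36 TPM in replicate 2. T cell markers summed to 1.24 and 0.32 TPM with Cd8a at 0 counts in both libraries, and hepatocyte and intestinal markers to 0.61 and 2.38 TPM in replicate 1 and 0.71 and 3.28 TPM in replicate 2, with Apoc3, Fgb and Lct at 0 counts. The part of these other cells in the results below was not tested. In bulk tissue, fewer cells of a type and less RNA per cell cannot be told apart. Intervals reflect counting error alone and treat each count as independent. PCR copies of a molecule are not independent, so the intervals may be too narrow. An SD over the 2 libraries is technical.

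Srp54a and Sec61g each have a near-identical copy elsewhere in the genome that held reads in these tables. Srp54a (chromosome 12, 55080262 to 55115367) and its paralog Srp54c (chromosome 12, 55230168 to 55263836) differ at 6 of 1515 coding bases, an identity of 99.6%. Bases 922 to 981 of both coding sequences, from the GENCODE transcripts of GRCm38 and 5′ to 3′, are shown because they hold 3 of the 6 differences, which are in capitals. The Srp54a model holds only its 1515 coding bases, whereas the Srp54c transcript compared has 2317 bases.
Srp54a: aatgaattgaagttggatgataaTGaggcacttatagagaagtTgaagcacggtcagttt
Srp54c: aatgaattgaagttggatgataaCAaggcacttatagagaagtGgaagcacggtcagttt

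Sec61g (chromosome 11, 16500530 to 16508484, minus strand) matches the transcribed processed pseudogene Gm10177 (chromosome 9, 37252922 to 37253365, plus strand) without a difference over 420 bases. Shown are the first 60 bases that are coding in every protein-coding Sec61g transcript of the tables, and the same stretch of Gm10177, with the ATG that opens it in capitals. In the 754-base Sec61g transcript compared, they are bases 388 to 447, and the annotated coding part of that transcript already begins at base 292.
Sec61g: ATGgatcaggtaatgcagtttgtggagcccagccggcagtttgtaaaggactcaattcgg
Gm10177: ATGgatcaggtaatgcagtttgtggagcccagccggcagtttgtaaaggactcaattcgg

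The machinery was detected throughout. All 33 members held reads in both libraries, with 33.4 to 4017 expected counts in replicate 1 and 38 to 2117 in replicate 2. Together they took 0.139% of TPM in replicate 1 and 0.112% in replicate 2, a mean of 0.125% ± 0.0195 (SD, n = 2 technical libraries), or 1393 and 1117 TPM. The 8 acinar markers held 90.3 and 127 times that sum. The median member stood at 28.8 TPM in replicate 1 and 20.5 TPM in replicate 2. Among the 9964 protein-coding genes at 1 TPM or more in both libraries, these medians correspond to percentiles of 92.2 and 90.7, and every member but Ckap4 in replicate 2 lay above the median of those genes. At least 10 TPM was reached by 29 members in replicate 1 and by 26 in replicate 2.

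**Figure D1:**
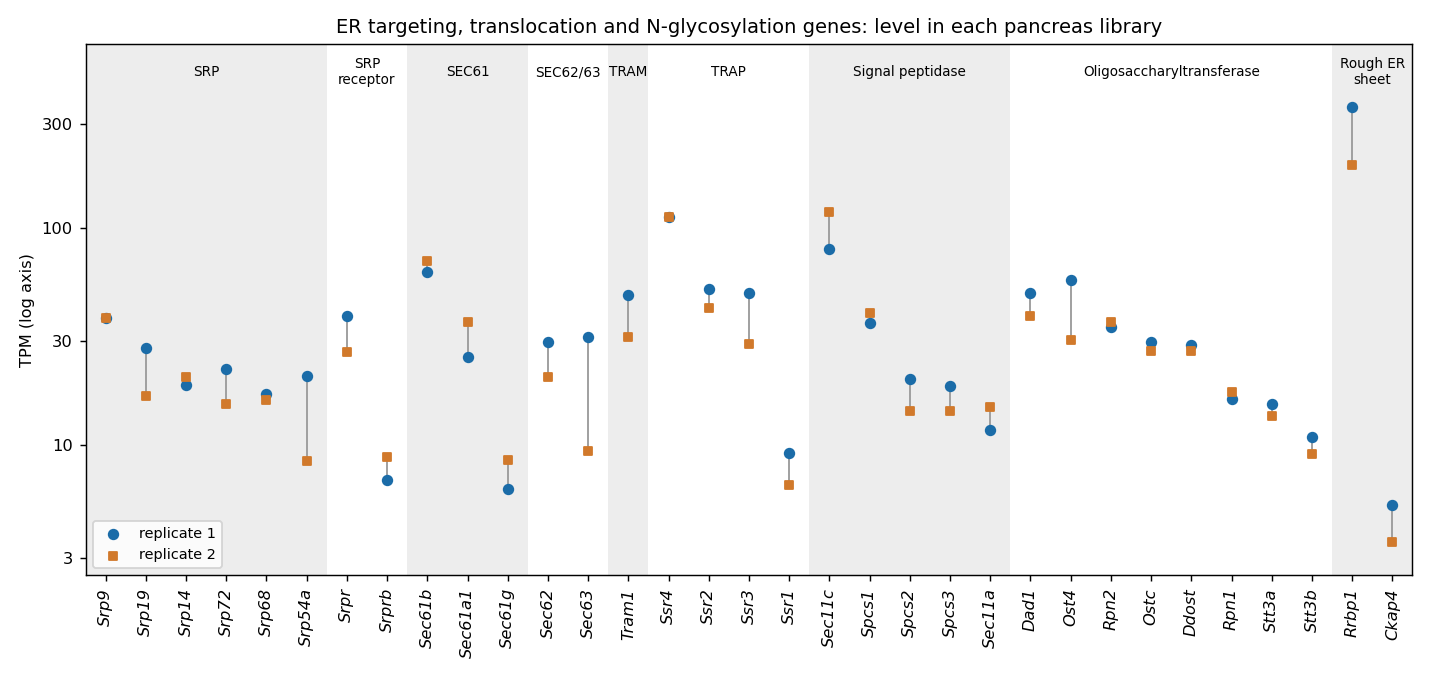
TPM (log axis) of each of the 33 genes in replicate 1 (circles) and replicate 2 (squares), grouped by complex and ordered within it by the mean of the libraries, with a line joining the 2 values of a gene. Most members lie between 10 and 100 TPM, Rrbp1 stands highest at 359.6 and 194 TPM, and Ckap4 lowest at 5.28 and 3.56 TPM.

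Targeting begins with the SRP, an RNA with 6 proteins, whose genes summed to 145 TPM in replicate 1 and 115 TPM in replicate 2. Srp9 and Srp14 encode the pair that pauses translation. Srp9 stood at 38.4 and 38.2 TPM, the highest of the 6 members in both libraries, and Srp14 at 18.9 and 20.4 TPM. Srp9 thus exceeded its partner 2.03-fold in replicate 1 and 1.87-fold in replicate 2, a wider gap than either gene showed between the libraries. Srp68 and Srp72 encode the large pair that holds the RNA and contacts the receptor. Srp68 stood at 17.2 and 16 TPM and Srp72 at 22.4 and 15.3 TPM, so their order on gene TPM differed between the libraries. Per length of the coding transcript with most counts, Srp68 was above Srp72 in both, at 17.1 against 15.9 TPM and at 16.8 against 9.48 TPM. Srp19, an assembly factor that clamps the RNA, had 27.9 and 16.8 TPM. Srp54a, which encodes the GTPase that grips the signal sequence, had 20.7 and 8.41 TPM. Its near-identical paralog Srp54c, which is not a member, was listed at 24.95 and 19.4 TPM. The sum and the order of the 6 leave Srp54c out. With Srp54c added to Srp54a, Srp9 is no longer the highest in replicate 1.

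The SRP receptor joins a cytosolic GTPase, encoded by Srpr, to a membrane-anchored one, encoded by Srprb. Srpr lay at 39.3 TPM in replicate 1 and 26.7 TPM in replicate 2, and Srprb at 6.87 and 8.80 TPM. The alpha chain transcript was therefore more abundant than that of the beta chain, 5.72-fold in replicate 1 and 3.03-fold in replicate 2. Exons of Srprb share 888 bases on the same strand with Gm20425, which held 17.5 and 0 counts.

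The SEC61 channel has 3 chains, and its genes summed to 94.2 TPM in replicate 1 and 116 TPM in replicate 2. Sec61a1 (chromosome 6, 88503579 to 88518905) encodes the pore itself. Its level was 25.3 TPM in replicate 1 and 36.9 TPM in replicate 2, against 7.65 and 4.75 TPM for the paralog Sec61a2. The small beta chain gene Sec61b was the highest of the 3, at 62.6 and 70.4 TPM, and exceeded Sec61a1 by 2.48-fold and 1.91-fold. Sec61g, for the small gamma chain, was listed at only 6.27 and 8.51 TPM, from 33.4 and 38 counts. Its pseudogene Gm10177 was listed at 127 and 80.8 TPM, from 313 and 177 counts, so the deposited division of reads left the functional gene with the smaller part in both libraries.

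Beside the channel, SEC62 and SEC63 help proteins that enter after their synthesis, and SEC63 recruits the chaperone BiP. Sec62 stood at 29.7 TPM in replicate 1 and 20.5 TPM in replicate 2. Sec63 (chromosome 10, 42761496 to 42832514) stood at 31.3 and 9.36 TPM, so the pair was near equal in replicate 1, with a Sec62 to Sec63 ratio of 0.95, while the ratio was 2.19 in replicate 2. Per length of the coding transcript with most counts, Sec62 was the higher in both, at 24.5 against 13.5 TPM in replicate 1 and at 18.2 against 6.60 TPM in replicate 2. Tram1, for a membrane protein next to the channel that assists some signal sequences, stood at 49.1 and 31.4 TPM, and exceeded its paralog Tram2 by 36.9-fold and 34.1-fold.

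The translocon-associated protein (TRAP) complex, 4 membrane proteins bound to the channel, summed to 223 TPM in replicate 1 and 189.7 TPM in replicate 2. Its delta subunit gene Ssr4 (chromosome X, 73787028 to 73790830) was listed at 112 TPM in the first library and 111 TPM in the second. It ranked 2 and 3 among the members, and the libraries differed little. Ssr2 stood at 52.1 and 42.5 TPM and Ssr3 at 49.9 and 29.2 TPM. Ssr1, the alpha subunit gene, was lowest at 9.20 and 6.54 TPM. The ratio of Ssr4 to Ssr1 was 12.2 and 17.0 on the TPM scale but 0.89 and 1.23 in counts, since the deposited model of Ssr1 is a single transcript of 9306 bases.

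Signal peptidase genes summed to 166 TPM in replicate 1 and 202 TPM in replicate 2. Their protein-coding transcripts summed to 82.3 and 70.9 TPM, without Spcs1, whose main transcript could not be classed. Per length of the coding transcript with most counts, also without Spcs1, the sums were 142 and 162 TPM. In TPM, which is not TMM-scaled, the direction between the libraries thus depends on the transcripts counted. The enzyme has a catalytic chain in 2 versions, encoded by Sec11a and Sec11c, and accessory chains encoded by Spcs1, Spcs2 and Spcs3. Sec11c stood at 79.4 TPM in replicate 1 and 118 TPM in replicate 2. Sec11a stood at 11.7 and 15 TPM, so Sec11c was the more abundant catalytic chain transcript by 6.77-fold and 7.90-fold. In counts the ratio was 4.73 and 5.85. In protein-coding transcripts alone, Sec11c had 36.7 and 36.0 TPM and Sec11a 6.83 and 6.44 TPM. Exons of Sec11a share 163 bases on the same strand with Nmb, which held 21 and 18 counts. Spcs1 had 36.5 and 40.2 TPM, Spcs2 20.2 and 14.3 TPM, and Spcs3 18.6 and 14.3 TPM. Exons of Spcs1 share 252 bases with Glt8d1 on the opposite strand, which held 100 and 113 counts, beside 179 and 173 for Spcs1.

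The OST genes summed to 243 TPM in replicate 1 and 200.2 TPM in replicate 2. Stt3a and Stt3b encode alternative catalytic chains, the first working on chains as they pass the channel and the second also on finished chains. Stt3a stood at 15.4 and 13.5 TPM and Stt3b at 10.8 and 9.03 TPM, a ratio of 1.43 in replicate 1 and 1.5 in replicate 2. In counts the ratio was 1.15 and 0.98. Set per length of the coding transcript with most counts, Stt3a had 8.96 and 6.46 TPM and Stt3b 11 and 9.30 TPM, so the order of the pair depends on the transcript length used. Ostc, which ties the STT3A form to the channel, lay at 29.7 and 27.0 TPM. The shared chains included Dad1 at 50 and 39.1 TPM, Rpn2 at 34.7 and 36.7 TPM, Ddost at 28.8 and 27.0 TPM, and Rpn1 at 16.3 and 17.5 TPM. Ost4, for a chain of very few residues, stood at 57.1 and 30.4 TPM.

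Rrbp1 (chromosome 2, 143947395 to 144011263) encodes a ribosome-binding protein of the rough ER, and Ckap4 a protein of ER sheets. Rrbp1 was the highest member in both libraries, at 359.6 TPM in replicate 1 and 194 TPM in replicate 2. It alone made up 25.8% and 17.4% of the members' summed TPM, at 3.21 and 1.64 times the next member. Ckap4 was the lowest, at 5.28 and 3.56 TPM. The Rrbp1 to Ckap4 ratio of 68.1 and 54.4 in TPM was 31.6 and 28.6 in counts.

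The level of Rrbp1 depends on which transcript its reads were given to. Rrbp1-207, a noncoding processed transcript of 1048 bases in 6 exons, took 73.9% of the gene's TPM in replicate 1 and 62.5% in replicate 2. It held 51.1% and 38.6% of the gene's counts. Of its bases, 1042 are shared with the end of the full-length coding transcript Rrbp1-201, where they span positions 4136 to 5177 of 5177. Transcripts annotated as protein-coding held 50.3 and 39.6 TPM. With all reads of the gene set per length of its coding transcript with most counts, Rrbp1 had 93.5 and 57.6 TPM, and ranked 2 and 4 of 32 members, behind Ssr4 in both libraries and behind Sec11c and Sec61b in replicate 2. Both ways of setting levels by transcript were chosen after seeing the data.

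Over the 32 members whose transcripts could be classed, protein-coding transcripts held 65.0% of the summed TPM in replicate 1 and 67.8% in replicate 2. Spcs1 was left out, since most of its TPM lay in a transcript that the annotation used here does not hold. For the median member the coding share was 96.9% and 96.2%, and 19 and 20 members had 90% or more. The median over the 11779 tested protein-coding genes was 100% in both libraries, and 68.3% and 65.9% of them had 90% or more. The coding share was under 50% for 5 members in replicate 1 and for 6 in replicate 2, with Srp72, Sec11c, Rpn2 and Rrbp1 among them in both. Of the tested protein-coding genes, 13.3% and 11.6% had a share under 50%.

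**Figure D2:**
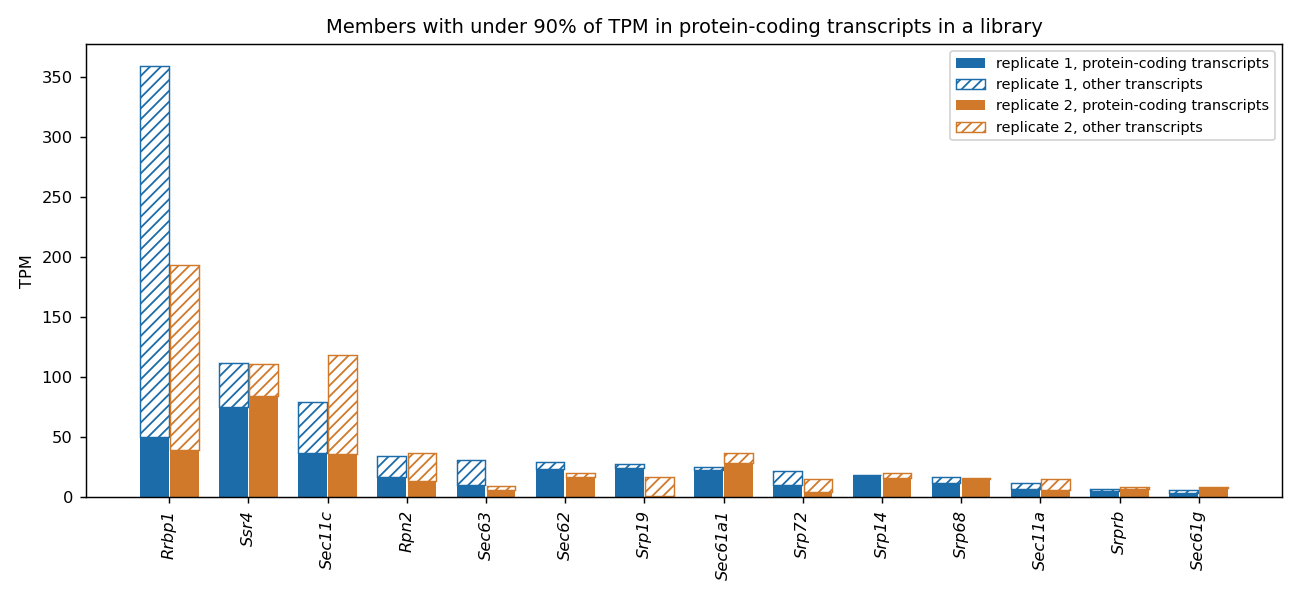
TPM of the members with under 90% of their TPM in protein-coding transcripts in at least 1 library, as bars from 0 for replicate 1 (left of each pair) and replicate 2 (right), with protein-coding transcripts filled and other transcripts hatched. Rrbp1 has the tallest hatched part, and the filled part of Srp19 is 24.8 TPM in replicate 1 and 0.91 TPM in replicate 2.

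The share of a gene's TPM held by its main transcript was compared for 23 members with 2 or more transcripts and a mean of 100 counts or more. It differed by 20 percentage points or more for 7 of them, Srp9, Srp19, Srp68, Sec63, Sec11a, Sec11c and Ost4, against 34.8% of 3686 genes assessed in the same way. The median difference was 5.03 points for the members and 13.2 points for all genes. This is a description with no test. The widest was Srp19, whose noncoding transcript Srp19-204 went from 9.98% in replicate 1 to 87.5% in replicate 2. Srp19-204 and the coding Srp19-201 share 722 of the 744 bases of the former, and the gene had 176 and 99 counts in all.

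Such divisions move the TPM of a gene apart from its reads, and so does the scaling of the libraries. For Sec63, the short noncoding transcript Sec63-203 held 62.9% of TPM in replicate 1 and 34.6% in replicate 2, from 13.6% and 4.69% of counts. The coding transcript Sec63-201 held 10.4 and 6.05 TPM. Sec63 read 31.3 and 9.36 TPM for the whole gene, a log2 TPM ratio of -1.74, against -0.77 in TMM-scaled counts. Part of such a gap is scaling, since TPM is not TMM-scaled. Stt3b, with 1 transcript, had a log2 ratio of -0.26 by TPM and 0.01 in TMM-scaled counts. For Ost4, both main transcripts are coding but differ in length, and the effective length of the gene was 449 bases in replicate 1 and 621 bases in replicate 2. Its TPM was 57.1 and 30.4, while the log2 ratio of its TMM-scaled counts was -0.17 (95% exact interval -0.49 to 0.13). Exons of Ost4 also share 677 bases with Agbl5 on the opposite strand, and the sources used here do not say whether the counting used strand.

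To see how far the libraries agree, counts of each gene were compared by a two-sided exact binomial test at TMM-scaled library sizes, with Benjamini-Hochberg adjustment over the 12452 genes with a mean of 10 counts or more. Calls required both an adjusted p below 0.05 and at least a 2-fold difference, that is a log2 ratio (replicate 2 over replicate 1) beyond 1 or -1. The test sets 1 library against 1, so it compares libraries and not conditions. None of the 33 members was called higher, where 8.31% of all tested genes were, and 1 was called lower, where 4.0% of all were. An adjusted p under 0.05 at any size was found for 16 members, or 48.5% of them, beside 36.2% of all tested genes. Of these, 8 lay above 0 and 8 below, beside 18.8% and 17.4% of all tested genes. The members had median counts of 438 and 284, and the test detects smaller differences at higher counts. Shares at this adjusted p were not taken for genes of like counts. An edgeR exact test with dispersion 0.01 assumes spread beyond counting error. There only Srp54a, Sec63, Sec11c and Sec61a1 kept an adjusted p under 0.05, and with dispersion 0.1 no member did. The members' log2 ratios ran from -1.02 to 0.68 with an SD of 0.42, beside 0.80 over all tested genes and 0.65 over the 8980 genes within the members' range of counts.

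The median log2 ratio was -0.01 for the members and -0.01 for all tested genes, with 17 members below 0 and 16 above. Scaling by library totals in place of TMM lowers every log2 ratio by 0.54, and 29 members then lay below 0, as did 78.5% of all tested genes. Across the 33 genes, log2 TPM in the libraries correlated at 0.91 by Pearson's r and at 0.88 by Spearman's rho, a description over genes that share both libraries. The log2 ratio ran with GC content of the transcript, with a Spearman rho of 0.33 over the members and 0.47 over 12426 tested genes, also as a description. With a smooth trend on GC content and length removed, the members' median was 0.12 and that of all tested genes 0.04.

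**Figure D3:**
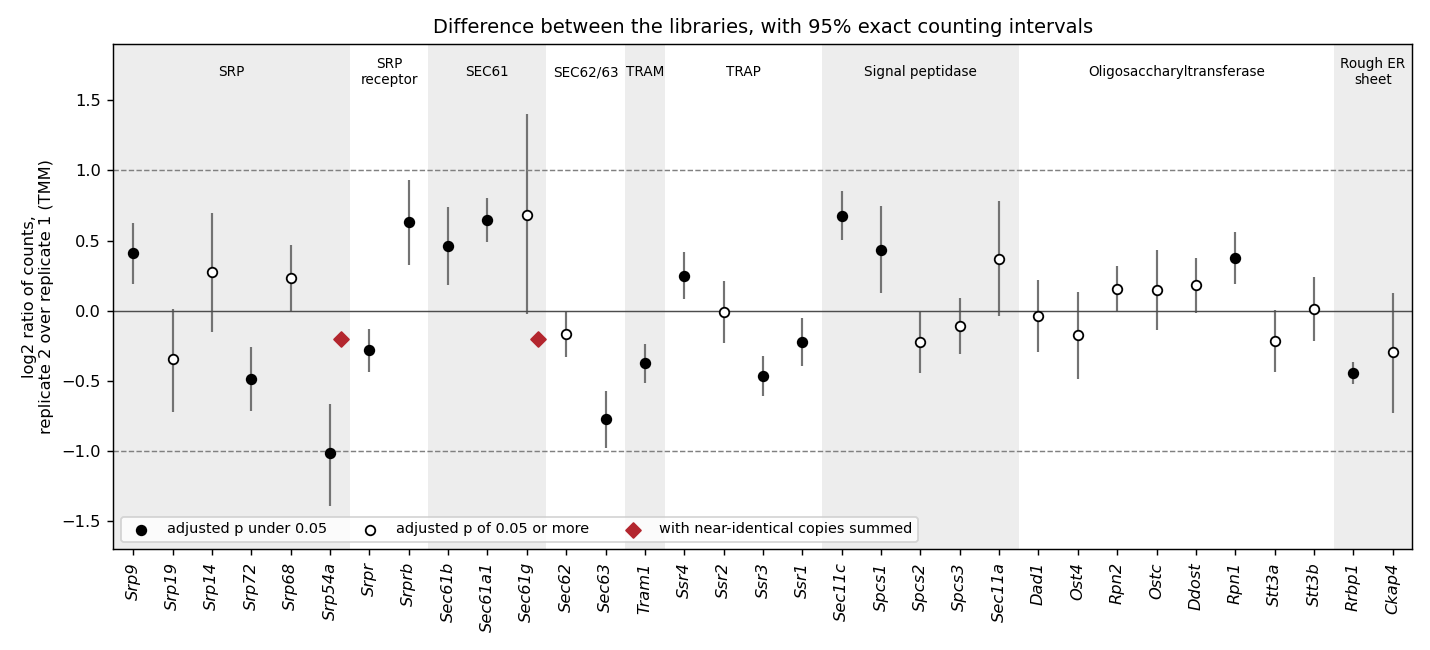
Log2 ratio of counts, replicate 2 over replicate 1 at TMM scaling, for each member with its 95% exact counting interval, filled where the adjusted p is under 0.05; dashed lines mark the ratio required for a call. Srp54a alone passes the lower line, at -1.02, and red diamonds show that Srp54a and Sec61g both stand at -0.20 once the counts of their near-identical copies are added.

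Srp54a was the called member. It held 244 expected counts in replicate 1 and 86.3 in replicate 2, with deposited posterior SDs of the count of 13.6 and 15.2. The log2 ratio was -1.02 (95% exact interval -1.39 to -0.66; exact binomial test, Benjamini-Hochberg adjusted p = 5.5e-08). Srp54c held 503 and 378 counts and had a log2 ratio of 0.07 (-0.13 to 0.27). Added together they held 747 and 464 counts, a log2 ratio of -0.20 (-0.37 to -0.04), which is not called. The call was also lost with the GC and length trend removed, at -0.70, and with 5 added to each count, at -0.97. Another copy, Srp54b, matches Srp54a without a difference over all 1515 bases and has no row in the deposited tables. Reads from it, if any, could not be told apart from those of Srp54a. Where they were counted was not tested.

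Sec61g had the highest ratio, 0.68, but with 33.4 and 38 counts its interval ran from -0.03 to 1.40 (exact binomial test, Benjamini-Hochberg adjusted p = 0.12). With Gm10177 and its other listed copies it held 346 and 215 counts and a log2 ratio of -0.20 (-0.46 to 0.05). The sign thus depends on whether the pseudogene is counted. Srp9 also has an identical copy over 253 bases, Gm13736, which held 11.5 and 0 counts, and adding it moved the ratio only from 0.41 to 0.36.

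Among members without such a copy in the tables, Sec11c was highest, with 506 and 579 counts and a log2 ratio of 0.68 (0.50 to 0.85; exact binomial test, Benjamini-Hochberg adjusted p = 4.2e-13). Sec61a1 followed, with 630 and 707 counts and a ratio of 0.65 (0.49 to 0.81; adjusted p = 9.5e-15 in the same exact test). Srprb, with 175 and 194 counts, had a ratio of 0.63 (0.33 to 0.93). Of the Sec11c counts, the coding transcript Sec11c-201 held 207 in replicate 1 and 173 in replicate 2. The retained-intron Sec11c-205 held 191 and 250, and the noncoding Sec11c-204 and Sec11c-202 held 51.6 and 135 and 53.0 and 15.6. The Sec11c ratio is thus one of the whole gene and not of its coding transcript. At the other end stood Sec63, with 679 and 284 counts and a log2 ratio of -0.77 (-0.98 to -0.57; exact binomial test, Benjamini-Hochberg adjusted p = 1.7e-13). Srp72 had -0.48 (-0.71 to -0.26), Ssr3 -0.46 (-0.61 to -0.32), Rrbp1 -0.44 (-0.52 to -0.37) and Tram1 -0.37 (-0.51 to -0.23). All of these intervals exclude 0 but also a ratio of 1 in size, so the differences exceed counting error and are under 2-fold at this scaling. With the GC and length trend removed, however, Tram1 stood at -0.0064, Ssr3 at -0.091 and Srp72 at -0.14, with adjusted p = 0.987, 0.385 and 0.418 in the exact binomial test. Of the 16 members with an adjusted p under 0.05, 8 kept it and 8 lost it there, and 4 others gained it, so that 12 of 33 had one beside 27.4% of all genes. Sec11c stood at 0.92, Sec61a1 at 0.56, Srprb at 0.62, Rrbp1 at -0.59 and Sec63 at -0.67 after the trend. The members with an adjusted p of 0.05 or more, Sec61g apart, ran from -0.34 for Srp19 to 0.37 for Sec11a, and Ssr2, Dad1 and Stt3b lay nearest 0, at -0.01, -0.03 and 0.01.

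Directions within a complex depended in part on the scaling. The 3 SEC61 chains were all above 0, between 0.46 and 0.68, but Sec61g was below it with its copies added and Sec61b stood at -0.073 with library totals. Sec62, at -0.17, and Sec63 were both below 0, but after the GC and length trend Sec62 stood at 0.22 (exact binomial test, Benjamini-Hochberg adjusted p = 0.0364). In the TRAP complex, Ssr4 stood at 0.25 (0.08 to 0.42) and Ssr3 at -0.46, intervals that do not overlap. After the trend both were just below 0, at -0.043 and -0.091, and with library totals both were below 0, at -0.29 and -1.0. In the OST, 7 of the 8 genes had an adjusted p of 0.05 or more, and the exception was Rpn1 at 0.38 (0.19 to 0.56). Differences between members of a complex were not tested themselves.

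Promoters of the members were searched for the sites known from the unfolded protein response, as letters only, since nothing in these data measures binding. RefSeq windows of GRCm38.p6, from 250 bases before the start to 50 after it, were given for 25 of the 33 members, in 26 windows. The ER stress response element, CCAAT and CCACG with 9 bases between them on either strand, matched none of the 26, beside 0.119% of 32851 windows in the table. The core of the unfolded protein response element, TGACGTGG, also matched none, beside 0.676% of all windows; it holds CCACG on its other strand. CCACG by itself was found in 16 of the 26, or 61.5%, beside 32.8% of all windows and 46.3% of windows of the genes tested above. Counted by gene, 16 of the 25 members had it in a window, beside 52.00% of 9632 tested genes. CCAAT was found in 14 windows, or 53.8%, beside 37.4% and 37.1%, and by gene in 14 of 25 members beside 42.6% of tested genes.

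Around this machinery, 73 other genes of ER entry and glycan handling in 12 lists were examined, of which 72 were matched and 71 tested. Their median was 7.08 TPM in replicate 1 and 7.30 TPM in replicate 2, under the members' 28.8 and 20.5 TPM. The remaining OST subunits came nearest the members, with Krtcap2 at 62.0 and 48.7 TPM and Tmem258 at 37.8 and 36.4 TPM. Magt1 and Tusc3, alternative oxidoreductase chains of the STT3B form, stood at 13.1 and 11.6 TPM and at 5.86 and 5.28 TPM. The Magt1 to Tusc3 ratio was 2.23 and 2.20. Genes of dolichol-linked oligosaccharide synthesis, which build the glycan that OST transfers, had a median of 4.24 and 3.43 TPM over 23 genes, the lowest list median but for the paralogs of members in replicate 2.

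Luminal chaperones that draw chains through the channel included Hspa5, the gene of BiP, at 198 and 152 TPM, and Hyou1 at 42.8 and 34.5 TPM. The nascent polypeptide-associated complex, which screens chains before the SRP, had Naca at 117 and 89.2 TPM and Btf3 at 85.2 and 53.0 TPM. Glycan trimming genes ranged from 2.68 to 39.9 TPM in replicate 1 and from 1.67 to 44.7 TPM in replicate 2, with Edem2 and Edem1 on top. The ER membrane protein complex, a separate insertase, had a median of 5.75 and 6.18 TPM over 10 genes.

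**Figure D4:**
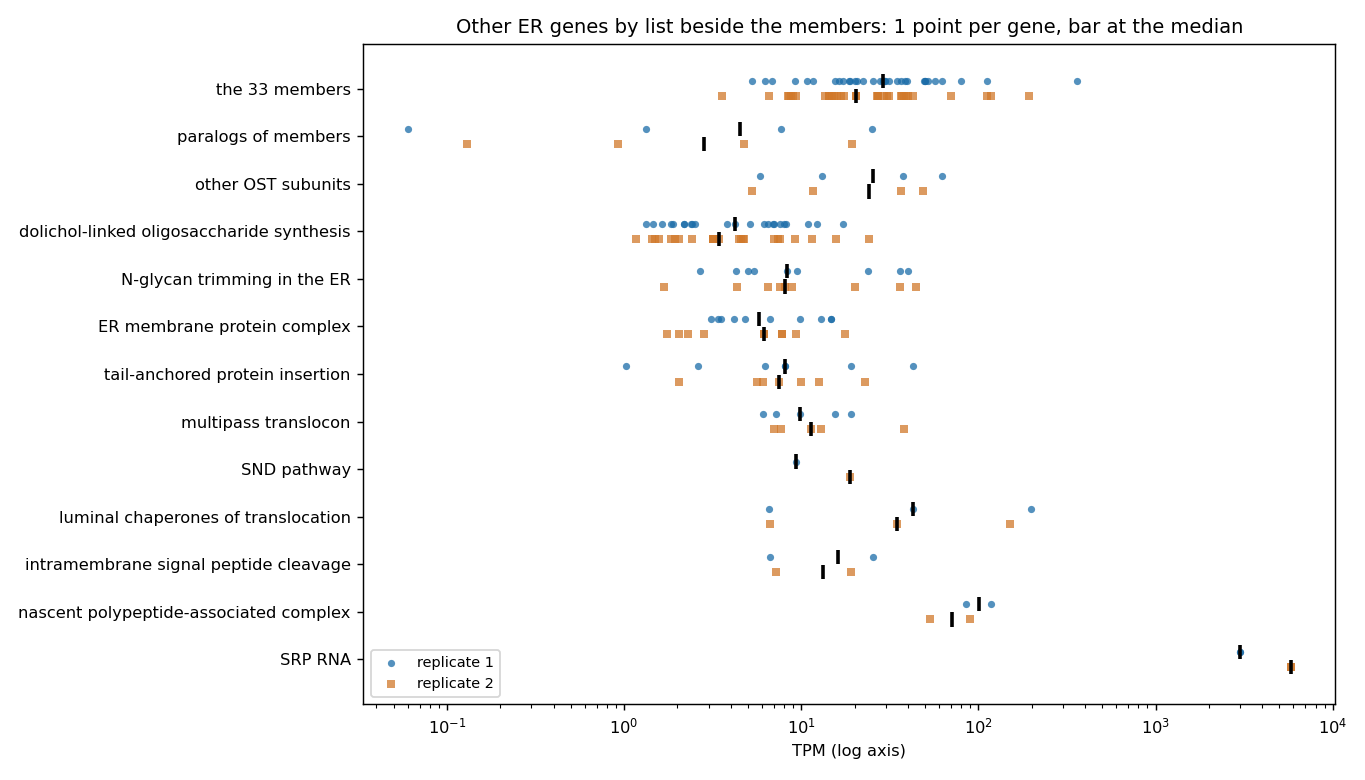
TPM (log axis) of the 33 members and of the other ER genes by list, 1 point per gene, with replicate 1 as circles above replicate 2 as squares and a black bar at each median. The members' medians are 28.8 and 20.5 TPM, the dolichol list lies lower at 4.24 and 3.43 TPM, and the SRP RNA genes, listed with equal values, lie at 2979 and 5814 TPM each.

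Of the 71 tested genes, 8 were called higher in replicate 2 and none lower, beside 8.31% and 4.0% of all tested genes by the same exact test. Ratios of the other tested genes ran from -0.94 for Alg14, on 25 and 9 counts, to 0.998 for Mogs, a glucosidase of glycan trimming, just under the size for a call. The called genes were Dpm3, Get4, Wrb, Ncln, Tmem147, Tmem208, Rn7s1 and Rn7s2. Dpm3, for a chain of dolichol-phosphate mannose synthase, had 4 counts in replicate 1 and 46 in replicate 2, a log2 ratio of 3.85 (95% exact interval 2.55 to 5.94). Rn7s1 and Rn7s2 encode the SRP RNA itself, were listed with the same 3606 and 6461 counts each, and are 1 observation, at a log2 ratio of 1.32 (1.26 to 1.38). That interval leaves out the division of reads between them, for which the deposited posterior SDs of each count were 1468 and 3357. Together they were listed at 5958 and 11628 TPM. The SRP RNA is not polyadenylated as a rule, so its level in polyadenylated libraries does not give its level in the tissue. Scaled by library totals, only Dpm3 of the 8 kept a log2 ratio of 1 or more, at 3.32. With the smooth trend on GC content and length taken out, Ncln stood at 0.43 and the SRP RNA at 0.25, both under the size for a call.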

How the data were processed

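The deposited README files name mm10 as the build and GENCODE M4 as the annotation. Which aligner and quantifier were used, and with which strand setting, is not stated in what was used here. Each row, per the file headers, gives a gene's or transcript's expected count, which need not be whole, its posterior mean and SD, and an effective length. TPM and FPKM are the authors' values per effective length; FPKM served only in an alternative. So did the deposited signal of the posterior mean TPM.

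Names and positions were read from GENCODE M21 (GRCm38, the same assembly as mm10), where 42462 of 43346 identifiers matched. Expected counts were rounded. Library sizes were scaled by TMM in edgeR 4.0.16 (R 4.3.3). With 1 library a side edgeR's quasi-likelihood test has no residual degrees of freedom, so an exact binomial test was used, with 0.5 added to both counts for ratios and Clopper-Pearson intervals at 95%. The test was checked on data simulated with counting error alone, so that check does not cover libraries with a wider spread. Near-identical copies are BLAST+ 2.17.0 matches of at least 200 bases that cover 50% of the shorter transcript at 90% identity or more, and the GC and length trend was fitted with mgcv 1.9.3. Alternatives used DESeq2 1.42.0 size factors, library totals, upper quartile factors, other filters, prior counts and assumed dispersions. Python 3.11.15, scipy 1.17.1 and matplotlib 3.10.9 were used.

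All 33 members are named. Any gene of the pathway lists could be named, those called and the most and least abundant first. Members and lists were chosen with earlier results of these data known. Spike-in and numbered rows, which hold no counts, were left out.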

Additional observations from a re-analysis of the deposited data

How the results depend on the processing

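Counts of 33.4 to 4017 per member limit precision, and with 1 biological sample no spread between animals is known. No paired analysis was possible because the libraries form 1 group and share no replicate number with another. Leaving out a library gives no ratio; for the summed share of TPM it gives 0.112% to 0.139%. Members called lower numbered 4 with library totals, 2 by the ratio of deposited TPM, which has no test, and 0 with an edgeR dispersion of 0.1, with 5 added to each count, with the GC and length trend removed and with copies summed, in place of 1; none was called higher in any of these. The median member ratio was -0.55 with totals, -0.26 by TPM and 0.12 after the trend. With totals, 12 members changed sign: Srp9 (-0.13), Srp14 (-0.26), Srp68 (-0.31), Sec61b (-0.073), Ssr4 (-0.29), Spcs1 (-0.10), Sec11a (-0.16), Rpn1 (-0.16), Rpn2 (-0.38), Ddost (-0.35), Stt3b (-0.52) and Ostc (-0.39). After the trend 6 did: Sec62 (0.22), Ssr1 (0.20), Ssr4 (-0.043), Spcs3 (0.28), Ddost (-0.069) and Stt3a (0.032). By TPM 6 did: Srp9 (-0.0057), Srp68 (-0.10), Ssr4 (-0.0081), Ddost (-0.095), Stt3b (-0.26) and Ostc (-0.14). Stt3b did with upper quartile factors (-0.015), and Sec61g with copies summed (-0.20). Over all tested genes, calls ranged from 31 to 1182 higher and from 14 to 2603 lower across the 13 alternatives, the most lower with totals. The members' share was 0.227% (0.255% and 0.199%) with Lars2, Gm26917, Gm42418 and the mitochondrial genes and copies left out, with medians of 52.8 and 36.5 TPM. Counting coding transcripts only, it was 0.0806% (0.0882% and 0.0730%), with a median of 21.6 TPM in replicate 1; per length of the main coding transcript it was 0.101%, and 0.108% in replicate 1. The coding measures and the summing of copies were chosen after seeing the data, and both coding measures leave out Spcs1. Of 14 members with a mean of 300 counts, 3 passed 20 points in isoform share. Where no construction of the alternative shows it, the cause was not tested.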
